A study of Mus musculus with 163 samples.

Results

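The neuropeptide Y receptors *Npy1r*, *Npy2r* and *Npy5r* were described in single neurons from the mediobasal hypothalamus of the mouse. The 3 genes were taken by name from the 12187 genes measured, and each of the 3 was present in the table. The neurons came from male *Pomc-eGFP* mice aged 7 to 9 weeks, on a C57/BL6 background (Tg(Pomc-EGFP)1Low), which had free access to food. In these mice regulatory sequences of *Pomc* drive green fluorescent protein, so a sorted cell is one in which that transgene was or had been active, and it need not hold much *Pomc* mRNA. Fluorescent cells were sorted singly into 96 well plates, and each gave 1 library. No cell was treated. The labels tie no cell to an animal, a plate or a batch. All cells therefore stand as 1 sample, SDs are spreads over cells, and no p-value was computed.

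Neuropeptide Y is released by the AgRP neurons of the arcuate nucleus, together with agouti-related peptide (*Agrp*) and GABA, and it drives feeding. Its receptors couple to Gi/o proteins, which lower cAMP, open inwardly rectifying potassium channels and close presynaptic calcium channels. The Y1 receptor (*Npy1r*) and the Y5 receptor (*Npy5r*) are known for postsynaptic and feeding effects of the peptide, and the Y2 receptor (*Npy2r*) is known as an autoreceptor of neurons that make neuropeptide Y. Neurons that express *Pomc*, the precursor of the appetite-suppressing peptide alpha-MSH, lie beside the AgRP neurons and receive inhibitory input from them.

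Cells were divided by the mRNA of these 2 neuropeptides. The 48 cells with *Agrp* above 10 log2RPM are called Agrp-high. The other cells are called Agrp-low. Of these, 34 had *Pomc* at 12 log2RPM or more (Pomc-high) and 81 had less (Pomc-lower). Values are library-scaled reads (RPM) on a log2 scale (log2RPM), with a lowest value of -0.91 log2RPM, which stands for 0 reads and equals 0.532 RPM. A receptor was called detected in a cell at 5 RPM (2.32 log2RPM) or more. Shares of cells are followed by 95% intervals (exact, Clopper-Pearson). These take in counting error and nothing else. A gene is called higher or lower in a class of cells when its mean log2RPM there differs by 1 or more.

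The classes were set beside listed markers other than the genes that formed them. Besides *Agrp*, all 5 other markers of AgRP neurons were higher in Agrp-high than in Agrp-low cells, where 8.65% of all genes were higher. Besides *Pomc*, 3 of 4 other markers of POMC neurons were higher in Pomc-high than in Pomc-lower cells, where 4.5% of all genes were higher. Between Agrp-high and Pomc-lower cells, 1 of the 5 POMC markers, with *Pomc* counted, was higher, 1 was lower and 3 were neither. The median cell had 8 of 8 neuronal markers at 5 RPM, and the lowest cell had 4. Only 2 cells, both Pomc-lower, held 3 or more markers of oligodendrocytes above 7 log2RPM. Every other non-neuronal type listed had at most 2 markers measured, so cells like these types could not be found by this count. Depth over the 12187 genes ran from 1.98 to 21.1 M reads in Agrp-high cells (median 8.52 M) and from 1.47 to 35.6 M reads in Agrp-low cells (median 8.06 M). The classes were not spread evenly over the numbers that the cells carry. Cells 1 to 66 held 32 Agrp-high, 8 Pomc-high and 26 Pomc-lower cells, cells 67 to 98 held 5, 9 and 18, and cells from 99 on held 11, 17 and 37. These 3 ranges of cell numbers were taken over from an earlier look at the same data, and what they stand for is not stated.

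*Npy1r* (ENSMUSG00000036437) lies on the plus strand at chr8:66697422-66706798 of GRCm38, and *Npy5r* (ENSMUSG00000044014) on the minus strand at chr8:66679965-66688094. The genes point away from each other, with 9328 bases between their starts, and do not overlap. *Npy2r* (ENSMUSG00000028004) lies on another chromosome, on the minus strand at chr3:82538383-82548086. The promoters of the divergent pair and of *Npy2r* are shown because of a pattern seen in Agrp-low cells. There *Npy1r* and *Npy5r* moved together from cell to cell, and *Npy2r* did not follow them. Each window holds 250 bases before and 50 after the RefSeq start (GRCm38.p6) and is written 5′ to 3′ on the strand of the gene, at chr8:66697172-66697471 for *Npy1r*, chr8:66688045-66688344 for *Npy5r* and chr3:82548036-82548335 for *Npy2r*. Capitals mark every match, on either strand, to a TATA box (TATAAA), a GC box (GGGCGG), an AP-1 site (TGANTCA), the E-box CACGTG or a cAMP response element (TGACGTCA).
Npy1r: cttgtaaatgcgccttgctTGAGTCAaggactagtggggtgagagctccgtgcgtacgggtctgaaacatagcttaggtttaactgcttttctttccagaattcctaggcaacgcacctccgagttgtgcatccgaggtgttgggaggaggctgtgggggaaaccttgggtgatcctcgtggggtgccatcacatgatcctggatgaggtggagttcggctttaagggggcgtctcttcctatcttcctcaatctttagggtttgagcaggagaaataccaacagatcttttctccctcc
Npy5r: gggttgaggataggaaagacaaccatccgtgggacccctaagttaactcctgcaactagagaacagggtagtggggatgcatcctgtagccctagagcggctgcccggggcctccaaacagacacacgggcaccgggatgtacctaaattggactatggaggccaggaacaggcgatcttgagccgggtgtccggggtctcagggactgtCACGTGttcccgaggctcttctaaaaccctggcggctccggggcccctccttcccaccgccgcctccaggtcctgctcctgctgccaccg
Npy2r: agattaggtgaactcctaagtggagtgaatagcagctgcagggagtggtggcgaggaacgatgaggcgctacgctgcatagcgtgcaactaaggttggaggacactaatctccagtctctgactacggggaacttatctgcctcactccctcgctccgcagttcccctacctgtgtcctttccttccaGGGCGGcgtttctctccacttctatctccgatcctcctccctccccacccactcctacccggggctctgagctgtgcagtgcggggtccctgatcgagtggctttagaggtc
Each window held 1 match, and no motif was shared by the divergent pair. *Npy1r* had TGAGTCA, which matches the AP-1 letters, 231 bases before its start. *Npy5r* had CACGTG 40 bases before its start, and *Npy2r* had GGGCGG 62 bases before its start. Among all 32851 promoter windows of this length, 7.81% held the AP-1 letters, 7.15% held CACGTG and 35.7% held GGGCGG. None of the 3 windows held TATAAA, which 13.62% of all windows held, or TGACGTCA, which 1.79% held. The matches are letters in a window and were not tested as binding sites.

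*Npy2r* set the Agrp-high cells apart. Its level ran from a lowest value of 5.38 through a median of 8.73 to a highest value of 10.14 log2RPM in Agrp-high cells, against -0.91, 5.74 and 8.79 log2RPM in Pomc-high cells and -0.91, 1.95 and 8.48 log2RPM in Pomc-lower cells. The Agrp-high cells were thus all high, with 351 to 21314 *Npy2r* reads each, whereas both other classes ran from 0 reads to levels inside the Agrp-high range. *Npy2r* was detected in 48 of 48 Agrp-high cells (100%, interval 92.6 to 100%), in 21 of 34 Pomc-high cells (61.8%, 43.6 to 77.8%) and in 35 of 81 Pomc-lower cells (43.2%, 32.2 to 54.7%). Mean levels were 8.61 ± 0.87 log2RPM in Agrp-high and 3.17 ± 3.09 log2RPM in Agrp-low cells (SD over cells). This difference of 5.44 was the 5th largest among the 12187 genes, of which 8.65% were at least 1 higher in Agrp-high cells and the median gene differed by 0.19. *Npy* and *Agrp*, with differences of 8.72 and 8.55, came first and second, and *Agrp* was used to form the classes.

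A gene found in every Agrp-high cell was common, since 1889 genes (15.5%) were detected in all 48. Only 2 of the 12187 genes (0.0164%) were in addition detected in at most 50% of Agrp-low cells. They were *Npy2r*, in 56 Agrp-low cells (48.7%), and *Ghr*, the growth hormone receptor, in 48 (41.7%). The difference in *Npy2r* between Agrp-high and Agrp-low cells kept its sign in each range of cell numbers, at 4.02 in cells 1 to 66, 6.01 in cells 67 to 98 and 5.88 in cells from 99 on.

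**Figure D1:**
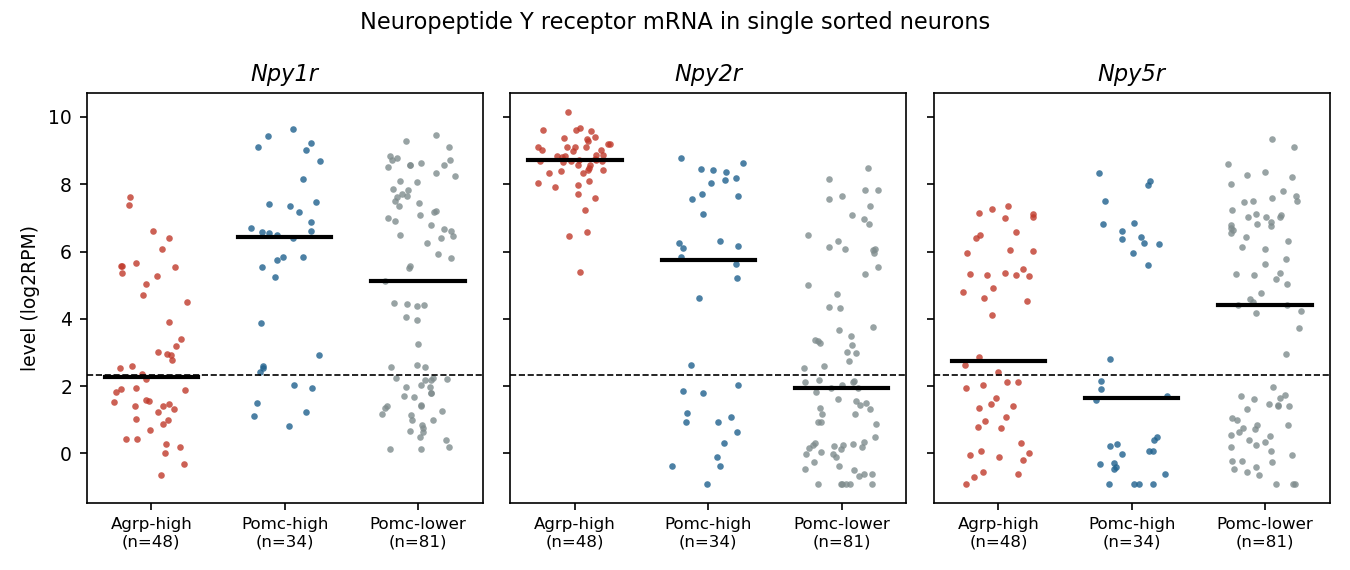
Level of each receptor (y axis, log2RPM) in every cell, by class (x axis), with 1 point per cell, a black bar at the median of the class and a dashed line at 5 RPM. All 48 Agrp-high cells lie above the line for *Npy2r*, whereas every other panel and class has cells on both sides of it.

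*Npy1r* went the other way. Its lowest, median and highest values were -0.64, 2.27 and 7.63 log2RPM in Agrp-high cells, 0.82, 6.44 and 9.64 log2RPM in Pomc-high cells and 0.12, 5.14 and 9.46 log2RPM in Pomc-lower cells. It was detected in 24 of 48 Agrp-high cells (50.0%, 35.2 to 64.8%), in 28 of 34 Pomc-high cells (82.4%, 65.5 to 93.2%) and in 51 of 81 Pomc-lower cells (63%, 51.5 to 73.4%). The intervals of Agrp-high and Pomc-high cells did not overlap, and that of Pomc-lower cells overlapped both. Mean *Npy1r* was 2.84 ± 2.195 log2RPM in Agrp-high cells and 4.999 ± 2.98 log2RPM in Agrp-low cells, a difference of -2.16 that ranked 67th from the lowest, where 2.94% of all genes were at least 1 lower. Single cells of the classes overlapped over most of their range, and the classes differed in how many cells were high. By range of cell numbers the difference was -1.91, -3.54 and -1.18. The shares did not differ in every range. In cells from 99 on, *Npy1r* was detected in 7 of 11 Agrp-high cells (63.6%) and in 35 of 54 Agrp-low cells (64.8%). At 32 RPM the shares there were 45.5% and 48.1%. How many of all genes had intervals that did not overlap was not counted.

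Many Agrp-high cells lay close to the *Npy1r* limit. Of the 24 in which it was detected, 12 lay between 5 and 32 RPM (5 log2RPM), a second cut-off added after the data were seen. At 32 RPM, *Npy1r* was found in 12 of 48 Agrp-high cells (25%), 23 of 34 Pomc-high cells (67.6%) and 41 of 81 Pomc-lower cells (50.6%). The highest *Npy1r* of an Agrp-high cell was 197 RPM, against 796 RPM in cell 75 among Pomc-high cells and 706 RPM in cell 65 among Pomc-lower cells. *Npy1r* had at least 1 read in every cell, as 2524 of the 12187 genes were above the lowest value in all cells. Cells below 5 RPM held up to 82 *Npy1r* reads, so a cell called negative was not one without reads.

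Over all cells, *Npy5r* differed less between Agrp-high and Agrp-low cells than the other receptors. Its lowest, median and highest values were -0.91, 2.74 and 7.34 log2RPM in Agrp-high cells, -0.91, 1.65 and 8.35 log2RPM in Pomc-high cells and -0.91, 4.41 and 9.33 log2RPM in Pomc-lower cells. It was detected in 26 of 48 Agrp-high cells (54.2%, 39.2 to 68.6%), in 14 of 34 Pomc-high cells (41.2%, 24.6 to 59.3%) and in 46 of 81 Pomc-lower cells (56.8%, 45.3 to 67.8%), and the 3 intervals overlap. Means of 3.30 ± 2.72 log2RPM in Agrp-high and 3.56 ± 3.28 log2RPM in Agrp-low cells differed by -0.26, and by 0.10, -0.87 and -1.56 in the 3 ranges of cell numbers, so only cells from 99 on passed the limit of 1. In Agrp-high cells the share varied with the range of cell numbers, at 20 of 32 in cells 1 to 66, 3 of 5 in cells 67 to 98 and 3 of 11 in cells from 99 on. At 32 RPM *Npy5r* was found in 18 of 48 Agrp-high, 13 of 34 Pomc-high and 37 of 81 Pomc-lower cells. In cells from 99 on, *Npy5r* differed more between Agrp-high and Agrp-low cells than *Npy1r* did (-1.56 against -1.18).

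Set against each class of Agrp-low cells alone, the order was the same. Agrp-high minus Pomc-high differences were 4.06 for *Npy2r*, -2.75 for *Npy1r* and 0.50 for *Npy5r*, with 12.8% of all genes at least 1 higher and 4.46% at least 1 lower. Agrp-high minus Pomc-lower differences were 6.02, -1.91 and -0.58 for the same genes, with 9.08% of all genes higher and 3.33% lower. Both sets use the same Agrp-high cells.

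Per length of transcript, the order of the receptors differed between the classes. Median levels in Agrp-high cells were 125.8 RPM per kb for *Npy2r*, 2.62 for *Npy5r* and 1.40 for *Npy1r*. In Pomc-high cells they were 25.2 RPM per kb for *Npy1r*, 15.8 for *Npy2r* and 1.23 for *Npy5r*. In Pomc-lower cells they were 10.2 RPM per kb for *Npy1r*, 8.34 for *Npy5r* and 1.14 for *Npy2r*. Over all ranges of cell numbers together, *Npy1r* thus had the highest median in both Agrp-low classes and the lowest in Agrp-high cells. The Agrp-high medians of *Npy1r* and *Npy5r*, 4.85 and 6.70 RPM, lay near the detection limit. The order did not hold in every range. Before scaling to length, Pomc-lower cells 1 to 66 had medians of 2.92 (*Npy1r*), 3.35 (*Npy2r*) and 4.36 log2RPM (*Npy5r*). Agrp-high cells from 99 on had 3.20 log2RPM for *Npy1r* and 0.08 for *Npy5r*. These levels use the union of GENCODE exons, of 3454, 3383 and 2555 bases for *Npy1r*, *Npy2r* and *Npy5r*.

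Within the Agrp-low cells, *Npy2r* was higher where *Pomc* was high. Its mean was 4.55 ± 3.37 log2RPM in Pomc-high and 2.59 ± 2.79 log2RPM in Pomc-lower cells, a difference of 1.96 that ranked 62nd from the highest, and 4.5% of all genes were at least 1 higher in Pomc-high cells. *Npy5r* was lower, at 2.80 ± 3.39 log2RPM in Pomc-high and 3.87 ± 3.19 log2RPM in Pomc-lower cells, a difference of -1.08, where 5.1% of all genes were at least 1 lower. The place of the *Pomc* limit decided this, since a limit of 11 log2RPM gave -0.11. The difference was also under 1 with *Agrp* divided at 11 log2RPM (-0.95) and with a pseudocount of 5 RPM (-0.60). *Npy1r* differed by 0.84, within the limit of 1, at 5.59 ± 2.74 log2RPM in Pomc-high and 4.75 ± 3.06 log2RPM in Pomc-lower cells, but by 1.44 with the *Pomc* limit at 11 log2RPM. The 3 ranges of cell numbers gave 2.86, 2.79 and 1.496 for *Npy2r* and -0.01, -2.26 and -1.01 for *Npy5r*. For *Npy1r* they gave 2.92 in cells 1 to 66 but -0.12 in cells 67 to 98 and 0.10 in cells from 99 on.

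Over 4 steps of *Pomc* (under 6, 6 to 9, 9 to 12, and 12 log2RPM or more, with 28, 35, 18 and 34 Agrp-low cells), *Npy1r* was detected in 17, 20, 14 and 28 cells. These are 60.7%, 57.1%, 77.8% and 82.4%, so the share was larger in both upper steps, with intervals that overlap. *Npy2r* was detected in 13, 13, 9 and 21 cells, and *Npy5r* in 16, 17, 13 and 14 cells. The share with *Npy5r* was thus largest just below the *Pomc* limit, at 72.2% (46.5 to 90.3%), and smallest above it. At 32 RPM, *Npy2r* was found in 7, 5, 7 and 19 cells, and the highest step stood at 55.9%.

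**Figure D2:**
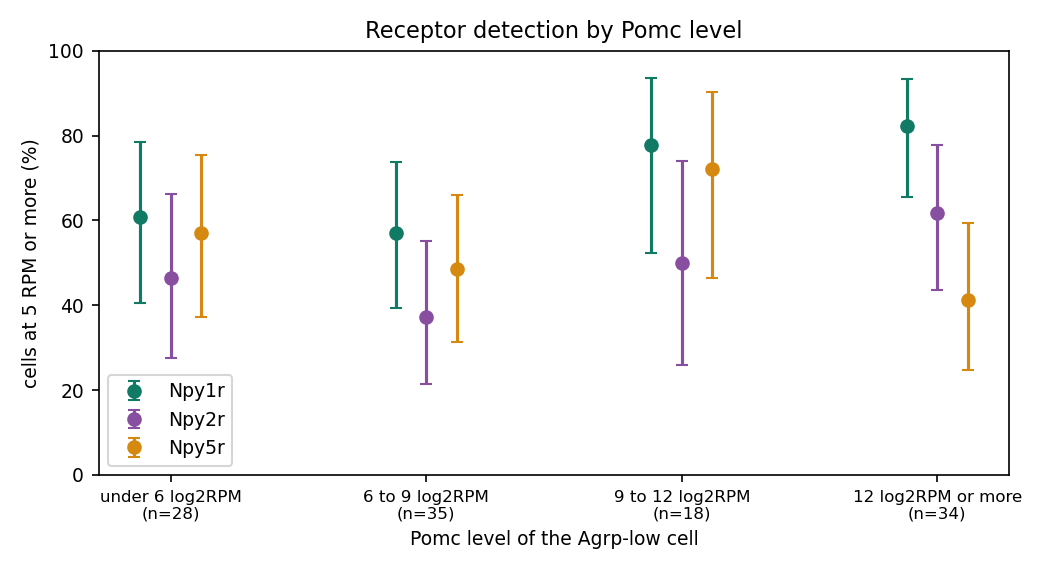
Share of Agrp-low cells with each receptor at 5 RPM or more (y axis, percent), by *Pomc* level of the cell (x axis, 4 steps from low to high); points are shares and bars exact 95% intervals. *Npy1r* and *Npy2r* have their largest shares at 12 log2RPM or more (82.4% and 61.8%), whereas *Npy5r* has its smallest there (41.2%).

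The low values of *Npy2r* in Agrp-low cells went with those of *Agrp*, though not in every range of cell numbers. Of the Agrp-low cells, 38 had *Npy2r* at 32 RPM or more (19 Pomc-high and 19 Pomc-lower) and 77 had less. In the 38 cells with more, the Spearman correlation of *Npy2r* with *Agrp* was 0.13, and in the 77 cells with less it was 0.76. Within ranges of cell numbers the cells with less gave 0.71 in cells 1 to 66, 0.18 in cells 67 to 98 and 0.54 in cells from 99 on, each below the pooled value.

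The ratio of *Npy2r* to *Agrp*, after the value for 0 reads was taken off, had a median of 0.139 (quartiles 0.0786 and 0.189) in the 48 Agrp-high cells, 9.31 (4.84 and 32.4) in the 38 Agrp-low cells with at least 32 RPM and 0.188 (0.114 and 0.266) in the 77 with less. Summed over cells, the ratio was 0.123 in Agrp-high cells and 0.254 in the 77 cells, whose median levels were 1.57 RPM for *Npy2r* and 5.65 RPM for *Agrp*. By range, the medians were 0.1397, 0.107 and 0.1598 in Agrp-high cells, and 0.182, 0.0682 and 0.212 in the lower cells. In cells 67 to 98 the lower cells had quartiles of 0 and 0.234, so no fixed proportion was seen there. Whether the low values are mRNA of the cells themselves or reads from other cells was not tested, so detection at 5 RPM in an Agrp-low cell need not mean that the cell made *Npy2r*.

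**Figure D3:**
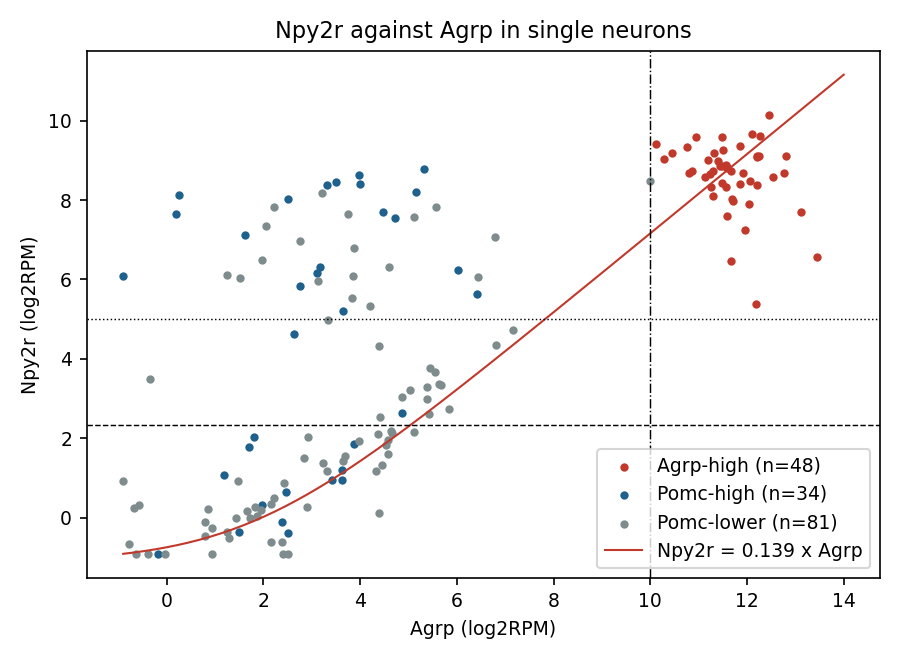
*Npy2r* (y axis, log2RPM) against *Agrp* (x axis, log2RPM) in all cells, coloured by class; the red curve is a fixed ratio of 0.139, the median of Agrp-high cells, and lines mark *Agrp* at 10 log2RPM, *Npy2r* at 5 RPM (dashed) and at 32 RPM (dotted). Many Agrp-low cells below 32 RPM lie near the curve, and all 38 cells at or above 32 RPM lie above it, with 1 cell at 9.99 log2RPM of *Agrp* beside the limit.

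The count of *Npy2r* in Agrp-low cells differed with the level of *Agrp*, more so at 5 RPM than at 32 RPM. *Npy2r* was detected in 10 of 40 cells with *Agrp* under 5 RPM, in 26 of 54 cells with *Agrp* of 5 RPM to 5 log2RPM and in 19 of 20 cells with *Agrp* of 5 to 8 log2RPM. At 32 RPM the same cells gave 9 of 40 (22.5%), 20 of 54 (37%) and 8 of 20 (40%). The ranges of cell numbers showed the same. At 5 RPM *Npy2r* was detected in 27 of 34 Agrp-low cells of range 1 to 66, in 8 of 27 of range 67 to 98 and in 21 of 54 of the range from 99 on, with median *Agrp* of 5.13, 1.43 and 2.91 log2RPM. At 32 RPM the counts were 14 of 34, 7 of 27 and 17 of 54.

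The lowest *Npy2r* of any Agrp-low cell also differed by range, at 1.18, -0.91 and -0.66 log2RPM, and no cell of range 1 to 66 was without *Npy2r* reads. That range held 32 of the 48 Agrp-high cells, and its mean *Npy2r* over all cells was 264 RPM, against 74.2 RPM in cells 67 to 98 and 131.9 RPM in cells from 99 on. In cells below 32 RPM the median *Npy2r* was 6.78, 0.204 and 1.38 RPM in the same ranges. For *Npy1r* the corresponding medians were 3.09, 1.23 and 3.05 RPM and for *Npy5r* 2.20, 0.123 and 0.632 RPM. Low values of each receptor were thus not the same in the 3 ranges, and their part in the shares at 5 RPM was not tested.

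A set of Agrp-low cells nonetheless held *Npy2r* within the range of Agrp-high cells, which began at 5.38 and had a median of 8.73 log2RPM. Only cell 27 lay above that median. Cell 27 (Pomc-high) had 8.79 log2RPM of *Npy2r*, from 3665 reads, with 5.33 log2RPM of *Agrp* and 15.49 log2RPM of *Pomc*. Cell 75, which had *Agrp* at the lowest value, had 6.09 log2RPM of *Npy2r* and 15.42 log2RPM of *Pomc*. A Pomc-lower cell had 8.17 log2RPM of *Npy2r* with 3.21 log2RPM of *Agrp*. The Agrp-low cell nearest to the *Agrp* limit, cell 44 at 9.99 log2RPM, had 8.48 log2RPM of *Npy2r*, 0.86 of *Npy1r* and 1.07 of *Npy5r*, and the next lower cell had 7.15 log2RPM of *Agrp*. The 4 cells just above the limit, at 10.12 to 10.75 log2RPM of *Agrp*, had 9.03 to 9.41 log2RPM of *Npy2r*.

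The 4 cells just below the *Pomc* limit, at 11.51 to 11.91 log2RPM, had *Npy1r* of 6.62 to 9.46 and *Npy5r* of 7.12 to 8.20 log2RPM. Among the 4 cells just above it, at 12.20 to 12.65 log2RPM, 2 cells held *Npy1r* of 6.69 and 8.68 with *Npy5r* of 6.61 and 6.42 log2RPM. The other 2 held 2.54 and 1.93 log2RPM of *Npy1r* with 1.71 and 1.58 log2RPM of *Npy5r*.

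*Npy1r* and *Npy5r* occurred together in Agrp-low cells. *Npy5r* was detected in 54 of 79 Agrp-low cells with *Npy1r* (68.4%, 56.9 to 78.4%) and in 6 of 36 without it (16.67%). In Pomc-high cells the counts were 14 of 28 with *Npy1r* and 0 of 6 without it, and in Pomc-lower cells 40 of 51 (78.4%) with it and 6 of 30 (20%) without it. Median depth was 8.12 M reads in the Agrp-low cells with *Npy1r* and 7.16 M in those without it. In Agrp-high cells *Npy5r* was found in 14 of 24 cells with *Npy1r* (58.3%, 36.6 to 77.9%) and in 12 of 24 without it (50.0%), and these intervals overlap widely. All 14 Pomc-high cells with *Npy5r* also had *Npy1r*, and so did 40 of 46 Pomc-lower cells (87%), but only 14 of 26 Agrp-high cells (53.8%).

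The pairing did not rest on values near the limit. At 32 RPM, *Npy5r* was found in 43 of 64 Agrp-low cells with *Npy1r* (67.2%, 54.3 to 78.4%) and in 7 of 51 without it (13.7%, 5.70 to 26.3%). By range of cell numbers the shares were 10 of 17 with and 4 of 17 without *Npy1r* in cells 1 to 66, 14 of 21 and 1 of 6 in cells 67 to 98, and 19 of 26 and 2 of 28 in cells from 99 on. In Agrp-high cells at 32 RPM they were 6 of 12 with *Npy1r* and 12 of 36 (33.3%) without it.

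**Figure D4:**
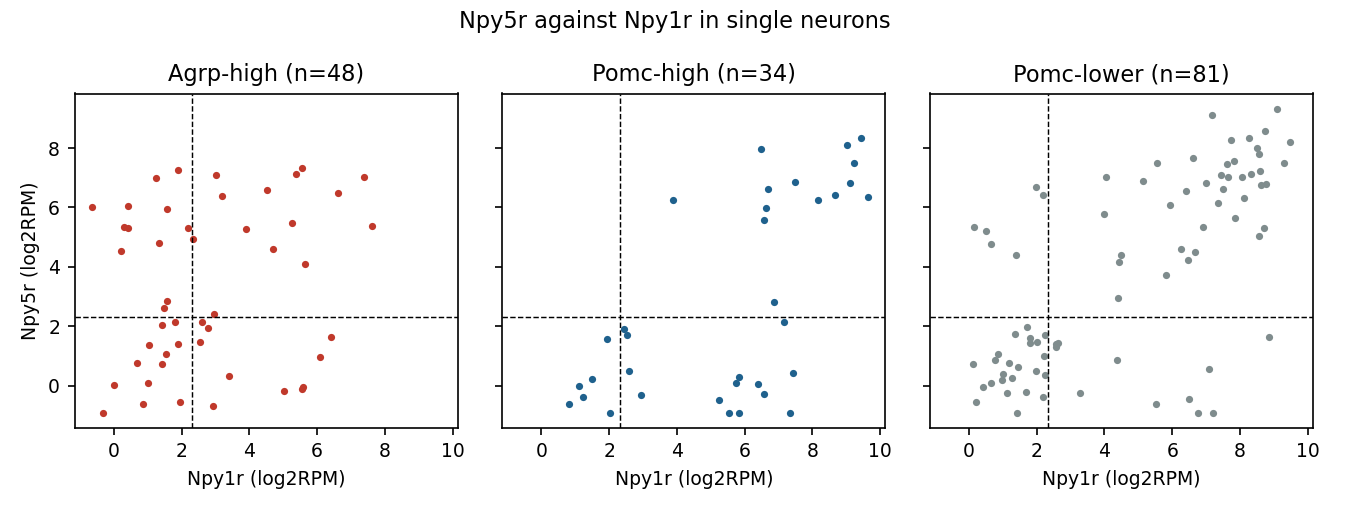
*Npy5r* (y axis, log2RPM) against *Npy1r* (x axis, log2RPM) in each cell, in 1 panel per class, with dashed lines at 5 RPM. In Pomc-high and Pomc-lower cells most points lie low for both or high for both (6 of 36 Agrp-low cells without *Npy1r* had *Npy5r*), whereas Agrp-high cells fill all 4 corners.

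Over single cells, the Spearman correlation of *Npy1r* with *Npy5r* was 0.62 in Agrp-low cells (0.65 in Pomc-high and 0.65 in Pomc-lower cells) and 0.19 in the 48 Agrp-high cells. Within the 3 ranges of cell numbers, Agrp-low cells gave 0.48, 0.61 and 0.64. Each value is a description over cells that share a preparation and its sequencing. Among the 43 Agrp-low cells with both receptors at 32 RPM or more the correlation was 0.25, and among the 44 with neither it was 0.34, where the choice of cells narrows the range of both genes. *Npy2r* had correlations of -0.03 with *Npy1r* and -0.06 with *Npy5r* in Agrp-low cells. In Agrp-high cells its correlations were 0.29 with *Npy1r* and 0.0002 with *Npy5r*.

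Neighbouring genes seldom paired in this way. Among 3314 pairs of adjacent genes at most 20 kb apart, both detected in at least 20% of Agrp-low cells, the median correlation was 0.03, and 13 pairs (0.392%) reached 0.4. The pair *Npy1r* and *Npy5r* was 1 of only 2 pairs at 0.62 or more.

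In joint patterns at 5 RPM, Agrp-high cells held *Npy2r* with every combination of the other receptors in similar numbers. Of the 48 cells, 14 had all 3 receptors, 10 had *Npy1r* and *Npy2r*, 12 had *Npy2r* and *Npy5r*, and 12 had *Npy2r* alone. The numbers were not similar at 32 RPM, where the same patterns held 6, 6, 12 and 24 cells, so *Npy2r* alone made up 50%. The patterns that follow are again at 5 RPM. Pomc-high cells had all 3 receptors in 10 of 34 cells, *Npy1r* with *Npy2r* in 8, *Npy1r* alone in 6, *Npy1r* with *Npy5r* in 4, *Npy2r* alone in 3 and none in 3. Pomc-lower cells had *Npy1r* with *Npy5r* in 27 of 81 cells, all 3 receptors in 13, *Npy2r* alone in 13 and none in 11.

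The pattern of *Npy1r* with *Npy5r* but no *Npy2r* was thus found in 0 of 48 Agrp-high cells, which allows a share of up to 7.40%, in 4 of 34 Pomc-high cells (11.8%, 3.30 to 27.5%) and in 27 of 81 Pomc-lower cells (33.3%). *Npy2r* with *Npy5r* but no *Npy1r*, found in 12 Agrp-high cells, was found in 0 Pomc-high and 4 Pomc-lower cells. At 32 RPM, *Npy2r* with *Npy5r* but no *Npy1r* was again found in 12 of 48 Agrp-high cells (25%) but in 0 Agrp-low cells, which allows a share of up to 3.16%. Each limit for a count of 0 is the upper bound of its exact interval. Over all cells, 37 (22.7%) had all 3 receptors and 14 (8.59%) had none, and each of those 14 was an Agrp-low cell.

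**Figure D5:**
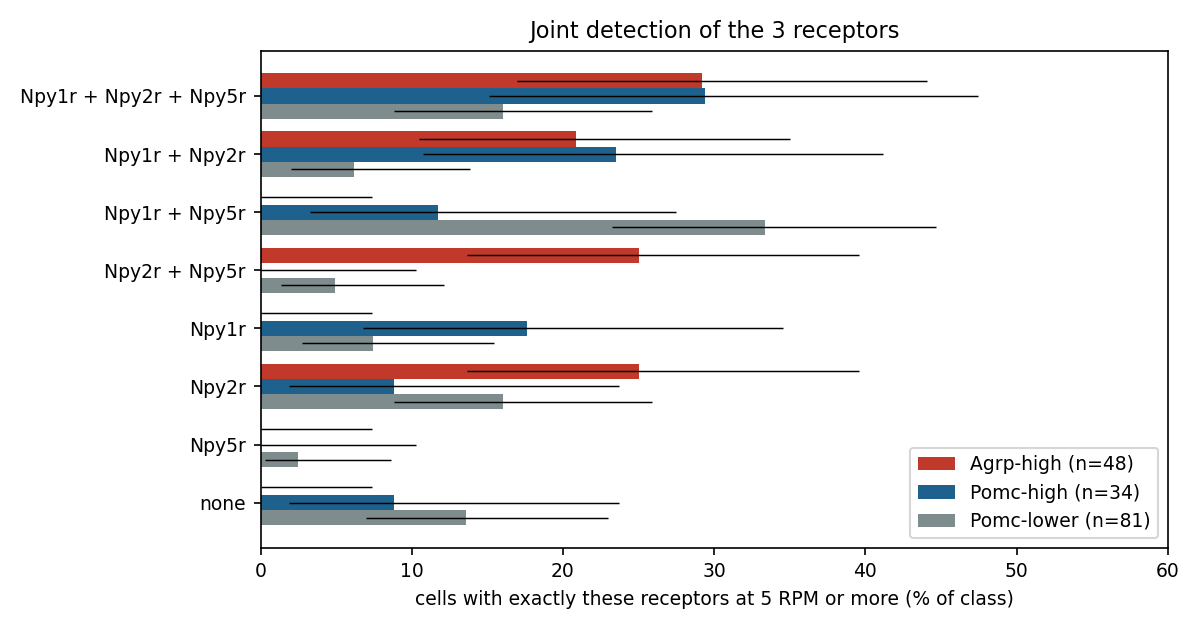
Share of each class (x axis, percent of cells) with exactly the receptors named at the left at 5 RPM or more; bars are shares and lines exact 95% intervals. Agrp-high cells appear only in the 4 patterns that hold *Npy2r*, and *Npy1r* with *Npy5r* is the most frequent pattern of Pomc-lower cells (33.3%).

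Either of the receptors known for postsynaptic effects, *Npy1r* or *Npy5r*, was detected in 36 of 48 Agrp-high cells (75%) and in 85 Agrp-low cells (73.9%). At 32 RPM these counts were 24 in Agrp-high and 71 in Agrp-low cells.

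The genes most like each receptor from cell to cell were then listed. Likeness was measured as the Spearman correlation over all cells, among 9946 genes detected in at least 20% of them. For *Npy1r* the first 5 were *Gfra1* (0.54), a receptor for GDNF, *Prlr* (0.52), the prolactin receptor, *Npy5r* (0.51), *Tmem35* (0.51) and *Pdyn* (0.49), the precursor of the dynorphins. *Prlr* was detected in 17 of 48 Agrp-high, 30 of 34 Pomc-high and 67 of 81 Pomc-lower cells, and *Pdyn* in 6, 29 and 50 cells of these classes. In Agrp-low cells alone, where 9925 genes passed the limit, they were *Gfra1* (0.62), *Npy5r* (0.62), *Ecel1* (0.57), *Rbms3* (0.53) and *Cited1* (0.50).

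For *Npy5r*, *Npy1r* came first over all cells (0.51) and in Agrp-low cells (0.62). It was followed over all cells by *Rbms3* (0.47), *1500009L16Rik* (0.42), *Gfra1* (0.42) and *Synpr* (0.41), the synaptic vesicle protein synaptoporin, and the same 4 genes came next in Agrp-low cells, at 0.47 to 0.54. For *Npy2r*, the first 5 over all cells were *Serpina3n* (0.77), a serine protease inhibitor, *Agrp* (0.75), *Npy* (0.74), *Arhgap6* (0.73) and *Ghr* (0.70). These follow the classes. *Serpina3n* was detected in 48 of 48 Agrp-high, 30 of 34 Pomc-high and 54 of 81 Pomc-lower cells. In Agrp-low cells the values were 0.50 for *Agrp*, 0.49 for *Serpina3n*, 0.48 for *Car8* and 0.47 for *Ezr*. The *Agrp* value includes the band of low cells described above. By range of cell numbers it was 0.09 in cells 1 to 66, 0.18 in cells 67 to 98 and 0.47 in cells from 99 on. Each of these lay below the pooled 0.50, and the part of differences between ranges in the pooled value was not tested. Within Agrp-high cells, *Npy2r* had a correlation of -0.20 with *Agrp* and of 0.40 with depth.

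*Cartpt*, the precursor of the CART peptide, was looked at after its values were seen. Its correlation with *Npy1r* was 0.60 in Pomc-high and 0.37 in Pomc-lower cells, and with *Npy5r* it was 0.57 in Pomc-high and 0.26 in Pomc-lower cells.

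Other markers of input to these neurons were set beside the receptors in Agrp-low cells. *Mc3r*, the melanocortin 3 receptor, went with both members of the divergent pair. *Npy1r* was detected in 38 of 44 cells with *Mc3r* (86.4%, 72.6 to 94.8%) and in 41 of 71 without it (57.7%, 45.4 to 69.4%), and *Npy5r* in 34 of 44 cells with *Mc3r* (77.3%, 62.2 to 88.5%) and in 26 of 71 without it (36.6%, 25.5 to 48.9%). *Npy2r* was detected in 21 of 44 cells with *Mc3r* and in 35 of 71 without it (47.7% and 49.3%). Median depth was 7.94 M reads in cells with *Mc3r* and 8.14 M in cells without it. In Agrp-high cells, *Npy5r* was found in 17 of 33 cells with *Mc3r* and in 9 of 15 without it. *Npy1r* was found in 18 of these 33 cells (54.5%) and in 6 of the 15 (40%), with intervals that overlap. Median depth there was 9.47 M reads with *Mc3r* and 6.21 M without it.

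Transmitter genes were compared in the same way. With *Slc17a6*, the vesicular glutamate transporter of hypothalamic neurons, *Npy1r* was found in 54 of 73 Agrp-low cells (73.97%) and without it in 25 of 42 (59.5%), and *Npy5r* in 44 of 73 (60.3%) with and 16 of 42 (38.1%) without it. The intervals of with and without overlap for both receptors. *Gad1*, which makes GABA, was detected in all but 14 Agrp-low cells. *Npy5r* was found in 58 of those with *Gad1* (57.4%, 47.2 to 67.2%) and in 2 of the 14 without it (14.3%, 1.78 to 42.8%), and *Npy1r* in 70 with *Gad1* (69.3%) and in 9 of 14 without it. Of the 14 cells without *Gad1*, 9 were Pomc-high and 5 Pomc-lower. *Npy5r* was found in 13 of 25 Pomc-high cells with *Gad1* and in 1 of 9 without it. In Pomc-lower cells the counts were 45 of 76 with *Gad1* and 1 of 5 without it, and the intervals overlap within each class. *Lepr*, the leptin receptor, was detected in 20 Agrp-low cells, of which 16 had *Npy1r*, 11 had *Npy2r* and 11 had *Npy5r*. *Ghsr*, the ghrelin receptor, was detected in 8, of which 7, 4 and 6 had these receptors in the same order.

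The other genes of the pathway were taken from 2 lists. The first list held 11 genes, the ligands and receptors of the neuropeptide Y family together with *Agrp* and *Dpp4*, which do not belong to that family. Of these, 5 were measured, and they are the 3 receptors, *Npy* and *Agrp*. *Npy* ran from 9.99 to 14.79 log2RPM in Agrp-high cells. At 5 RPM it was detected in 48 of 48 Agrp-high, 30 of 34 Pomc-high and 71 of 81 Pomc-lower cells. At 32 RPM the counts were 48, 10 and 36. By range of cell numbers, *Npy* reached 32 RPM in 94.1%, 0% and 25.9% of Agrp-low cells. Whether its low values are mRNA of the cells themselves was not tested.

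Of 27 genes of Gi/o signalling, 26 were measured. Between Agrp-high and Agrp-low cells 4 were higher and none was lower (8.65% and 2.94% of all genes), with a median difference of 0.04 over the list and 0.19 over all genes. The 4 were the adenylyl cyclases *Adcy2* (2.02) and *Adcy5* (1.42), *Kcnj5* (1.92), a subunit of the potassium channel opened by G proteins, and *Rgs4* (1.23), which speeds the inactivation of Gi and Go. *Kcnj5* was detected in 20 of 48 Agrp-high and 15 Agrp-low cells. Between Pomc-high and Pomc-lower cells, *Kcnj3* (1.17), another subunit of that channel, was higher, and *Rgs10* (-2.04), *Adrbk1* (-1.25), a receptor kinase, and *Cacna1a* (-1.01), the pore of the P/Q-type calcium channel, were lower, where 4.5% of all genes were higher and 5.1% lower.

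Of 25 other G protein coupled receptors of arcuate neurons, 19 were measured. The list was drawn up as one of inhibitory receptors, but *Mc3r* and *Hcrtr2* in it are known to couple mainly to Gs and to Gq. Between Agrp-high and Agrp-low cells, *Mc3r* (2.04), the serotonin receptor *Htr1a* (1.80) and the GABA-B receptor subunit *Gabbr2* (1.15) were higher and the orexin receptor *Hcrtr2* (-2.79) was lower, with a list median of -0.25. These are 3 higher and 1 lower of 19, where 8.65% of all genes were higher and 2.94% lower. *Hcrtr2* was detected in 2 of 48 Agrp-high and 54 Agrp-low cells. Between Pomc-high and Pomc-lower cells, the mu opioid receptor *Oprm1* (1.23) was higher, and *Gabbr2* (-1.47), the nociceptin receptor *Oprl1* (-1.32) and *Mc3r* (-1.10) were lower, where 4.5% of all genes were higher and 5.1% lower. None of these 19 receptors differed by as much as *Npy2r* between Agrp-high and Agrp-low cells.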

How the data were processed

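Single-cell RNA-seq libraries (SMART-Seq v4, Nextera XT, single-end 50 bp) of 163 sorted neurons were used. Per the submitters' processing notes, the authors used CASAVA 1.7, TopHat2 2.0.11, GRCm38, Cufflinks 2.2.1, edgeR and limma. The deposited values are log2 RPM (reads scaled to library size) with a prior count, already normalized by the authors, for 12187 genes that each reach 5 RPM in at least 7 cells. Low values lie in steps of whole reads, from which reads and depth were computed; 99.3% of values of up to 20 reads came within 0.1 of a whole read, so single genes carry no batch adjustment. The prior count is part of every value, and PCR copies cannot be told from molecules, as the labels name no molecular identifiers.

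Members, classes, gene lists and ranges of cell numbers were chosen with earlier results of these data known. Classes were taken from *Agrp* and *Pomc* alone. Named genes are the 3 receptors, *Npy*, *Agrp*, *Pomc*, 5 co-detected genes, the list members with the largest differences and the 5 genes most like each receptor over all cells and over Agrp-low cells, of which 1 is not reported here. Differences are between means of log2RPM, without a test. The recovery of depth and differences was checked on simulated data. Alternatives were other detection limits, class limits, pseudocounts, filters, rescaling, thinning to 3 M reads, and cells left out. Leaving out replicates had no meaning with 1 sample. Other cell sorts of the study were not analysed here. Promoters came from RefSeq (all 3 receptors matched) and exons from GENCODE M21. Python 3.11.15, numpy 2.4.6, pandas 2.3.3, scipy 1.17.1 and matplotlib 3.10.9 were used.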

Additional observations from a re-analysis of the deposited data

How the results depend on the processing

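Of the recomputed values, 205 stayed close to those reported (shares within their interval, differences within 1 SD over cells, counts within 1.5 times), 46 moved and none of the called differences changed sign. By this measure no share or difference moved under other *Agrp* limits (9 and 11 log2RPM), other *Pomc* limits (11 and 13 log2RPM), without the 5 cells of fewer than 5000 genes, without the 2 cells with oligodendrocyte markers, after rescaling by 2711 broadly detected genes, after thinning to 3 M reads (7 shallower cells left out) or with pseudocounts of 0.1 and 5 RPM. Under other *Pomc* limits the Agrp-high shares and the Agrp-high minus Agrp-low differences could not change, since *Pomc* does not enter them. The measure is also wide for differences. A Pomc-high minus Pomc-lower difference of 2.92 for *Npy1r* in cells 1 to 66 (0.84 as reported) counted as close. The differences of *Npy2r* ran from 4.02 to 6.01 (Agrp-high minus Agrp-low) and from 1.44 to 2.86 (Pomc-high minus Pomc-lower). Those of *Npy1r* ran from -3.54 to -1.18 and from -0.12 to 2.92, and those of *Npy5r* from -1.56 to 0.10 and from -2.26 to -0.01. Class limits did change which side of 1 a difference lay on. With the *Pomc* limit at 11 log2RPM the Pomc-high minus Pomc-lower difference was -0.11 for *Npy5r* (-1.08 as reported) and 1.44 for *Npy1r* (0.84), and for *Npy5r* it was -0.95 with the *Agrp* limit at 11 log2RPM and -0.60 with a pseudocount of 5 RPM. No difference of *Npy2r* crossed 1. No paired analysis was possible because the cells form 1 sample and their numbers pair no groups.

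The detection limit moved most. At 1 RPM, *Npy1r* was found in 95.8% of Agrp-high, 100% of Pomc-high and 100% of Pomc-lower cells, *Npy2r* in 88.2% of Pomc-high and 80.2% of Pomc-lower cells, and *Npy5r* in 85.4% of Agrp-high, 70.6% of Pomc-high and 86.4% of Pomc-lower cells. All 3 receptors were then found in 40 Agrp-high, 21 Pomc-high and 56 Pomc-lower cells, none in 0 Pomc-high and 0 Pomc-lower cells, and *Npy1r* with *Npy5r* alone in 14 Pomc-lower cells. With any value above the lowest, *Npy1r* was found in 100% of each class, *Npy2r* in 97.1% of Pomc-high and 92.6% of Pomc-lower cells, and *Npy5r* in 97.9% of Agrp-high, 88.2% of Pomc-high and 96.3% of Pomc-lower cells. All 3 were then found in 47 Agrp-high, 30 Pomc-high and 72 Pomc-lower cells, none in 0 Pomc-high and 0 Pomc-lower cells, and *Npy1r* with *Npy5r* alone in 0 Pomc-high and 6 Pomc-lower cells. At 10 RPM, *Npy1r* was found in 33.3% of Agrp-high cells, and none of the 3 in 6 Pomc-high and 18 Pomc-lower cells. At 32 RPM, a limit chosen after the data were seen, *Npy1r* was found in 25% of Agrp-high and 50.6% of Pomc-lower cells, *Npy2r* in 23.5% of Pomc-lower cells and *Npy5r* in 37.5% of Agrp-high cells. All 3 were then found in 6 Agrp-high and 7 Pomc-lower cells, and none in 7 Pomc-high and 26 Pomc-lower cells. A lower limit admits cells with few reads by its construction.

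Within ranges of cell numbers, *Npy2r* was found in 100% of Pomc-high and 73.1% of Pomc-lower cells of range 1 to 66, and in 16.67% of Pomc-lower cells of range 67 to 98, where *Npy1r* was found in 83.3% and *Npy5r* in 72.2% of Pomc-lower cells. *Npy5r* was found in 27.3% of Agrp-high cells of the range from 99 on. The cause was not tested. Numbers of genes at least 1 higher or lower were recomputed after rescaling and for genes at 5 RPM in at least 10% of cells. These numbers stayed within 1.5 times. They were not recomputed within ranges of cell numbers, under other class limits or with other pseudocounts. With no animal named, the spread between animals is unknown.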
